A study of Arabidopsis thaliana with 6 samples.

Results

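The WRKY genes are a family of plant transcription factors, and 46 of them, given by a fixed list of gene identifiers, were examined among the 33489 genes counted. Polyadenylated RNA came from Arabidopsis thaliana seedlings after 14 days on plates. There were 3 wild-type samples (Col-0) and 3 samples of zdp-1 ape2-2, a line with mutant alleles of both ZDP and APE2. The enzymes they encode, a phosphatase that acts on 3' ends of DNA and an endonuclease of abasic sites, process DNA ends left by base excision repair and by active DNA demethylation. The labels call the mutant a knockout of both genes and name no agent or treatment for either group, and they do not say whether the 3 samples of a group were separate cultures. The spread behind each p-value is thus that of these 6 samples, and it may be technical. All 46 identifiers matched WRKY symbols of the RefSeq TAIR10.1 annotation. A further 25 WRKY genes lay outside the list and were read only beside it.

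WRKY proteins share a DNA-binding domain named after its first conserved amino acids, and bind the W box, a short element with the core TTGAC. Many of their genes carry W boxes themselves, so that family members act on one another's promoters. In Arabidopsis a large share of the family is induced by pathogens and by salicylic acid, downstream of MAP kinase cascades and of VQ proteins that bind WRKY partners. Other members act in phosphate supply, heat and osmotic stress, leaf senescence, trichomes, seed coat, embryo patterning and stem cell walls. The members were placed in 6 classes by the role each is best known for, and in the structural groups I, IIa to IIe and III of the family.

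Library totals ran from 31190605 to 37241739 counts, and 1 count was worth 0.0262 to 0.0328 CPM (counts scaled to library size with TMM factors, the level scale used throughout unless a value is given per kb of exon). Libraries of one group were alike, with a common biological coefficient of variation of 1.99%, so that small changes pass the test, and each member's call is read with its size. ZDP transcripts went from 29.4 ± 1.37 to 17.9 ± 1.43 CPM (SD, n = 3 per group) and APE2 from 8.18 ± 0.87 to 5.75 ± 0.12 CPM, both lower in the mutant but still counted. Another gene's exons cover 33.6% of those of APE2. Leaf photosynthesis markers and root markers were both counted in every library labelled as seedlings. The 6 leaf markers summed to 35025 to 35817 CPM in Col-0 and to 28411 to 28918 CPM in the mutant, and the 11 root markers to 137.5 to 140.4 and to 123.1 to 130.2 CPM. In such bulk samples, fewer cells of a type and less RNA per cell cannot be told apart.

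Most WRKY genes that changed were higher in zdp-1 ape2-2, and the salicylic acid and basal defence class had the highest median change. Of the 46 members 44 had enough counts to be tested, and 27 of these were higher and 3 lower at an edgeR adjusted p below 0.05. Over all 21182 tested genes 43.4% were called by the same rule, 22.2% higher and 21.2% lower. With a fold change of at least 1.5 as well, 14 members were higher, against 5.49% of all tested genes, and none was lower, against 1.59%. The 3 members with an unadjusted p below 0.05 and a decrease are the 3 called lower, and DESeq2 called 2 members lower. DESeq2 also called fewer members higher, 21 in all and 12 by at least 1.5-fold, and 16.4% of all tested genes. The median log2 fold change was 0.30 over the 44 members and 0.00 over all tested genes. The list was chosen with earlier results of these data known, so its shares may not hold for the whole family. Among the 16 tested WRKY genes outside it 3 were higher and none lower, with a median of 0.01. The 90th percentile of all tested genes, 0.38, was exceeded by 20 of the 44 members, and no member lay below the 10th percentile, -0.25.

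**Figure D1:**
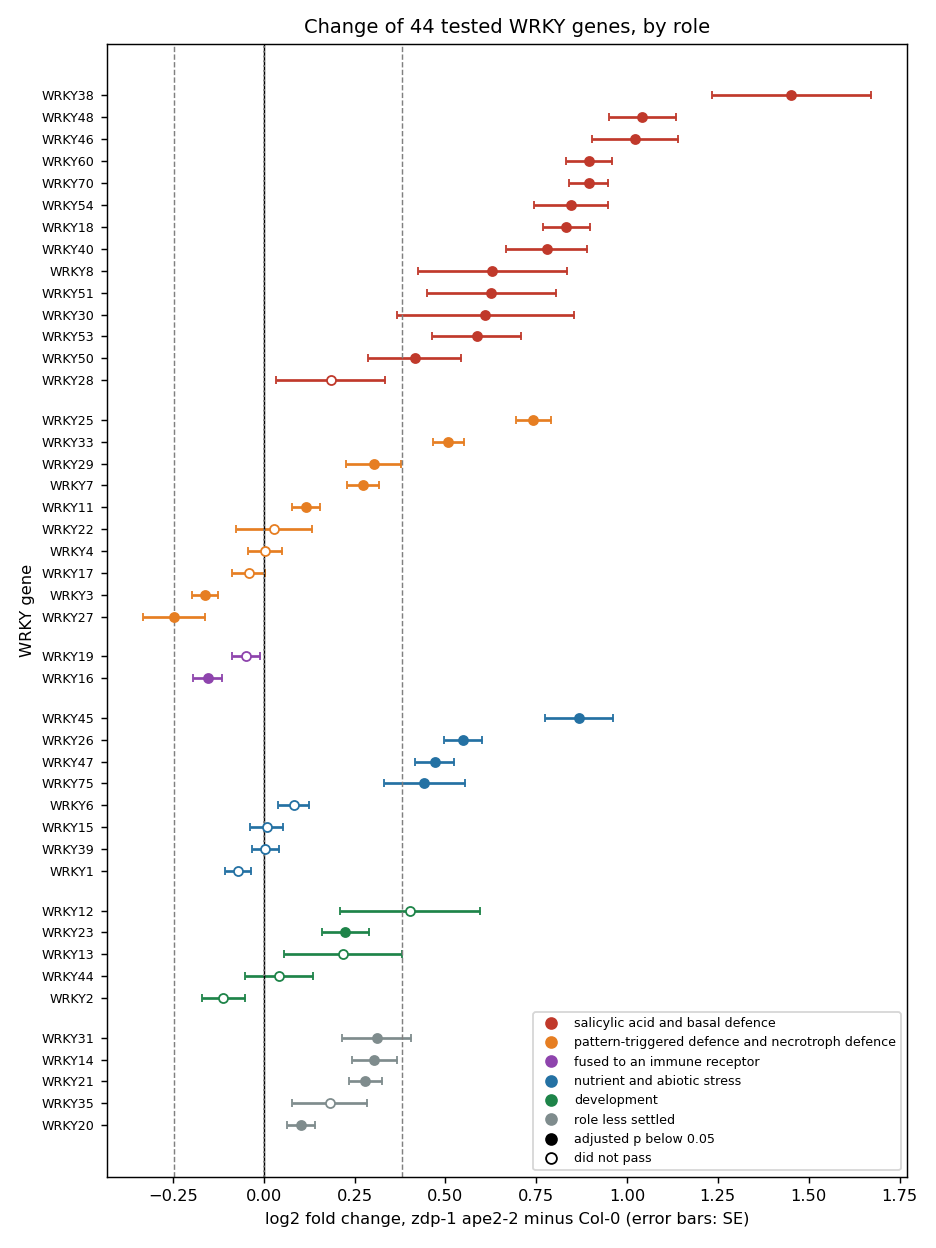
Log2 fold change of the mutant against Col-0 (x axis) for the 44 tested WRKY genes (y axis), ordered by role and size, with standard errors as bars; filled points passed an adjusted p of 0.05, and the dashed lines mark -0.25 and 0.38, the 10th and 90th percentiles of all tested genes. The salicylic acid and basal defence class holds 12 of the 14 genes higher by at least 1.5-fold, and the largest value is 1.45 for WRKY38.

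Summed over all 46 members, WRKY transcripts made up 588 ± 1.68 CPM in Col-0 and 671 ± 6.67 CPM in the mutant (SD, n = 3 each), a ratio of 1.14. The 3 mutant sums lay above the 3 Col-0 sums. For this sum, and for each member whose groups did not overlap, an exact two-sided permutation test had p = 0.1, below which a design of 3 against 3 cannot go. Groups did not overlap for 34 tested members, with the mutant above in 30 and below in 4, where 25.5% and 24.8% of all tested genes lay above and below. The salicylic acid class alone rose from a sum of 48.7 ± 1.53 to 86.8 ± 1.95 CPM, 1.78-fold. The 10 members of pattern-triggered and necrotroph defence, far more abundant, summed to 209 ± 2.28 and 231 ± 1.43 CPM, a ratio of 1.105.

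**Figure D2:**
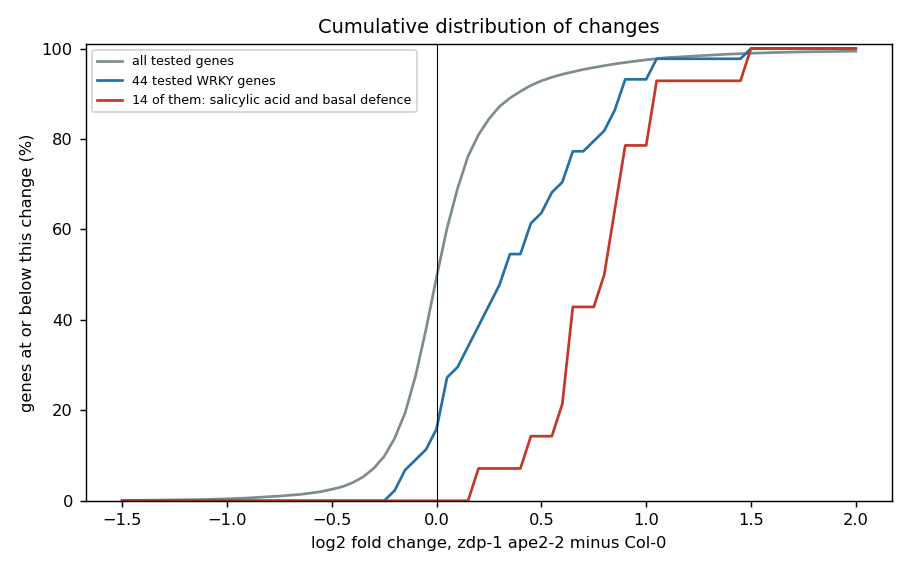
Share of genes (y axis, percent) at or below each log2 fold change (x axis) for all 21182 tested genes, the 44 tested WRKY genes and the 14 of them in the salicylic acid and basal defence class. Up to a log2 fold change of 1 the WRKY curves lie to the right of the curve of all genes, with medians of 0.30 and 0.81 against 0.00.

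The salicylic acid and basal defence class had 14 tested members of 16. Of these 13 were higher and none lower, 12 by at least 1.5-fold, with a median log2 fold change of 0.81. The shares of all tested genes were 22.2% higher and 5.49% higher by at least 1.5-fold. In all 14 the 3 mutant samples lay above the 3 Col-0 samples. This class holds both activators and repressors of defence, and genes of both kinds rose.

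WRKY38 (AT5G22570, chromosome 5, 7495455 to 7496990), which with WRKY62 restrains basal defence, had the largest fold change of the 44 tested members. Its level was 0.471, 0.521 and 0.426 CPM in the Col-0 replicates (A to C throughout) and 1.34, 1.29 and 1.29 CPM in the mutant replicates. The mutant samples were nearly equal and all far above Col-0, and the log2 fold change was 1.45 ± 0.22 (SE), or 2.74-fold, with an adjusted p of 6.56e-07. Over the 3 libraries of a group it rests on 49 Col-0 counts and 149 mutant counts. WRKY48 (AT5G49520, chromosome 5), a repressor of basal defence against Pseudomonas, had 3.29, 3.48 and 3.44 CPM in Col-0 and 6.92, 6.597 and 7.53 CPM in the mutant. Its groups were well apart, at a log2 fold change of 1.04 ± 0.09 (adjusted p = 2.90e-12). WRKY46 (AT2G46400, chromosome 2), which acts with WRKY53 and WRKY70 in basal resistance, had 2.08, 1.95 and 2.23 CPM in Col-0 and 4.06, 4.65 and 3.94 CPM in the mutant, a log2 fold change of 1.02 ± 0.12 (adjusted p = 2.42e-09).

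WRKY70 and WRKY54 are close relatives that respond to salicylic acid and limit its synthesis, and WRKY70 also sets the balance with jasmonate. WRKY70 (AT3G56400, chromosome 3), the most abundant member of the class, had 11.8, 13.3 and 12.2 CPM in Col-0 and 22.8, 23.8 and 22.8 CPM in the mutant, a log2 fold change of 0.89 ± 0.05 (adjusted p = 2.55e-17). WRKY54 (AT2G40750, chromosome 2) had 2.99, 3.73 and 2.88 CPM in Col-0 and 5.79, 5.41 and 6.15 CPM in the mutant, at 0.85 ± 0.10 (adjusted p = 6.94e-09). Both genes were higher in every mutant sample. The log2 ratio of WRKY54 to WRKY70 counts was -1.96 ± 0.12 in Col-0 and -2.0 ± 0.13 in the mutant (SD, n = 3 each), with overlapping groups (exact permutation p = 0.8).

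WRKY18, WRKY40 and WRKY60 form group IIa, whose proteins pair with one another and are known as pathogen-induced, partly redundant repressors of basal defence. WRKY18 (AT4G31800, chromosome 4) had 7.86, 7.29 and 8.52 CPM in Col-0 and 13.7, 13.9 and 14.4 CPM in the mutant. WRKY60 (AT2G25000, chromosome 2) had 7.42, 7.95 and 8.10 CPM in Col-0 and 14.0, 15.3 and 14.2 CPM in the mutant. WRKY40 (AT1G80840, chromosome 1) was lower than both, with 2.49, 2.52 and 2.82 CPM in Col-0 and 4.46, 4.89 and 4.04 CPM in the mutant. In all 3 genes the mutant samples lay above every Col-0 sample. The log2 fold changes were 0.83 ± 0.07 for WRKY18, 0.78 ± 0.11 for WRKY40 and 0.90 ± 0.06 for WRKY60, with adjusted p of 9.94e-14, 2.38e-07 and 9.36e-15. A copy at up to 98.8% identity on chromosome 3, in AT3G32090, covers 26.8% of the exons of WRKY40, so its count is uncertain. AT3G32090 itself had 0 counts in all 6 libraries.

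**Figure D3:**
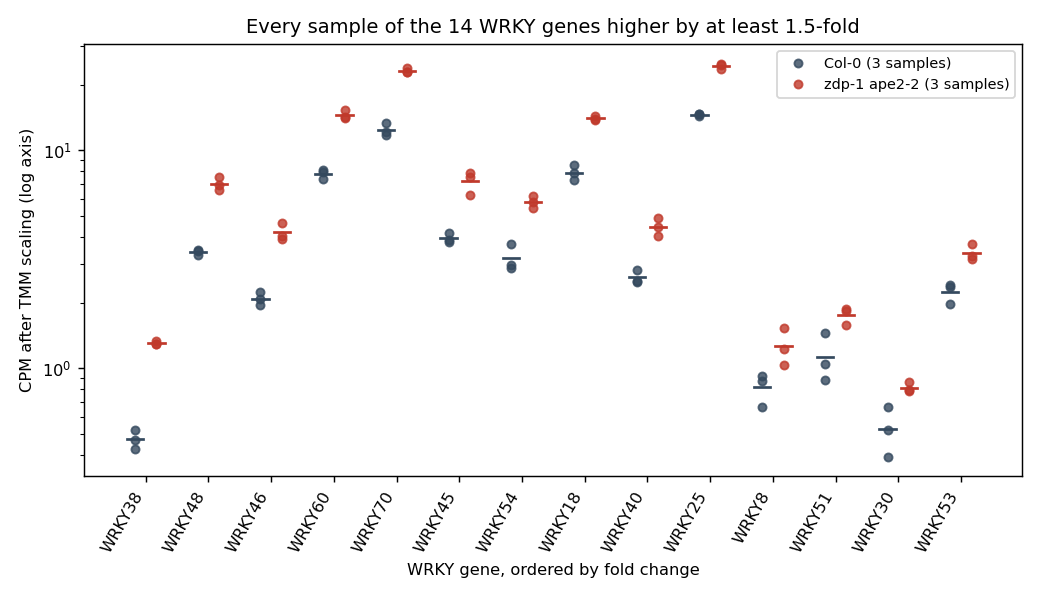
CPM after TMM scaling in each of the 6 samples (y axis, log scale) for the 14 WRKY genes higher by at least 1.5-fold (x axis, ordered by fold change), with short lines for the group means. In each of the 14 genes the 3 mutant points lie above the 3 Col-0 points, from WRKY38 at 2.74-fold to WRKY53 at 1.502-fold.

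Further members of the class are known from senescence and from the crosstalk of salicylic acid and jasmonate. WRKY53 (AT4G23810, chromosome 4), an early regulator of leaf senescence, had 2.35, 2.41 and 1.97 CPM in Col-0 and 3.17, 3.29 and 3.72 CPM in the mutant (log2 fold change 0.59 ± 0.12, adjusted p = 0.000131). The gene 3xHMG-box2 on the other strand covers 20.5% of its exons. WRKY51 (AT5G64810, chromosome 5), which with WRKY50 represses jasmonate signalling, had 0.886, 1.45 and 1.05 CPM in Col-0 and 1.86, 1.58 and 1.82 CPM in the mutant, where 1 Col-0 sample came close to the lowest mutant sample. Its log2 fold change of 0.63 ± 0.18 (adjusted p = 0.00365) became 0.47 with an adjusted p of 0.0514 without Col-0 replicate A, and over all alternatives the adjusted p ran from 0.000536 to 0.0514. WRKY50 (AT5G26170), which can bind the PR1 promoter, rose by 0.42 ± 0.13 on the log2 scale (adjusted p = 0.00741), short of 1.5-fold. Without mutant replicate B it had 0.33, with an adjusted p of 0.0664 in a range of 0.00209 to 0.106 over the alternatives.

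WRKY8 and WRKY30, both of low abundance, gave the least certain calls of the class. WRKY38, with fewer Col-0 counts than either, was called under all 12 alternatives. WRKY8 (AT5G46350, chromosome 5), which lowers resistance to Pseudomonas, had 0.664, 0.877 and 0.918 CPM in Col-0 and 1.23, 1.52 and 1.03 CPM in the mutant (0.63 ± 0.20, adjusted p = 0.0115). It missed the threshold without Col-0 replicate A (0.49) and without mutant replicate B (0.47), and its adjusted p ran from 0.00509 to 0.103 over the alternatives. WRKY30 (AT5G24110, chromosome 5), induced by reactive oxygen and a partner of WRKY53, had 0.664, 0.521 and 0.393 CPM in Col-0 and 0.787, 0.867 and 0.792 CPM in the mutant (0.61 ± 0.24, adjusted p = 0.0407). It kept its call under 4 of 12 alternatives, with an adjusted p of up to 0.175, and leaving out any sample other than Col-0 replicate A ended the call, with values from 0.46 to 0.63. WRKY28, an activator of the salicylic acid synthesis gene ICS1, had 1.62 ± 0.08 CPM in Col-0 and 1.84 ± 0.17 CPM in the mutant and did not pass (adjusted p = 0.340). Its interval of -0.11 to 0.48 on the log2 scale does not exclude a rise.

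WRKY55 and WRKY41 had too few counts to be tested. WRKY55, known from leaf senescence, had 4, 10 and 4 counts in the Col-0 replicates and 8, 20 and 10 in the mutant replicates, so that the groups overlapped. WRKY41, which acts in defence and in seed dormancy, had 1 to 2 counts per Col-0 library and 1 to 3 per mutant library. The gene 3xHMG-box1 on the other strand covers 41.7% of the exons of WRKY41, so its count is uncertain.

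The upstream sequences of 3 members of this class show how differently the W box is represented among genes that rose. They are the 250 bases before the annotated gene start, from the TAIR10.1 genome of RefSeq, 5' to 3' on the strand of the gene, with each TTGAC core (or GTCAA, the core read on the other strand) in capitals. WRKY38 and WRKY70 are shown for the largest change and the highest level of the class, and WRKY30 for having the most cores of the class. They lie at chr5:7496991-7497240 (WRKY38), chr3:20910624-20910873 (WRKY70) and chr5:8154711-8154960 (WRKY30), all on the minus strand.
WRKY38: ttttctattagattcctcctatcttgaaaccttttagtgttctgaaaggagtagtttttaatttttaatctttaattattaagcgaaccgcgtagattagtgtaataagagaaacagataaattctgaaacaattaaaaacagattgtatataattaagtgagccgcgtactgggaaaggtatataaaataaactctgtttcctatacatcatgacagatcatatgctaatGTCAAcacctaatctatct
WRKY70: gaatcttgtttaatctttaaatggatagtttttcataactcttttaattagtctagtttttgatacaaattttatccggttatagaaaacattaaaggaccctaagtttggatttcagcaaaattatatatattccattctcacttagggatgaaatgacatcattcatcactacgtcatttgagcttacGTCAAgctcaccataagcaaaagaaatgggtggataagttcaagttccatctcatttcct
WRKY30: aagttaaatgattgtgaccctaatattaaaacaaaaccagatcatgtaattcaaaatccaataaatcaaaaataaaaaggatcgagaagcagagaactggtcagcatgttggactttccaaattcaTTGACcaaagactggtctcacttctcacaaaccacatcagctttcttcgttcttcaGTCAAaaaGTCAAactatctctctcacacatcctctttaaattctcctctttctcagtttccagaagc

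WRKY30 had 3 cores, all with the full W box TTGACC or TTGACT, and WRKY38 and WRKY70 had 1 core each and no full W box. At least 1 TTGAC on either strand stood upstream of 26 of the 46 members (56.5%), of 10 of the 14 genes higher by at least 1.5-fold (71.4%) and of 14 of the other 30 tested members (46.7%). It stood upstream of 44.9% of 27437 protein-coding genes, and of 52.0% of the 1101 that were higher by at least 1.5-fold. The full W box, which overlaps the core by construction, was found in 4 of the 14 genes (28.6%) and in 11 of the other 30 (36.7%). It was found in 28.4% of all protein-coding genes. Windows of WRKY18, WRKY48, WRKY54 and WRKY60 held no core. In the windows of WRKY25 and WRKY45, which held cores, 244 and 208 of the 250 bases lay under exons of other genes. Exons of other genes also lay in the windows of WRKY7, WRKY16, WRKY19 and WRKY26. The motif of the DNA damage regulator SOG1, CTT and AAG around a spacer of 7 bases, was found for 4 of the 46 members (8.70%) and for 9.71% of protein-coding genes. These matches describe the letters in a short window and show no binding.

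**Figure D4:**
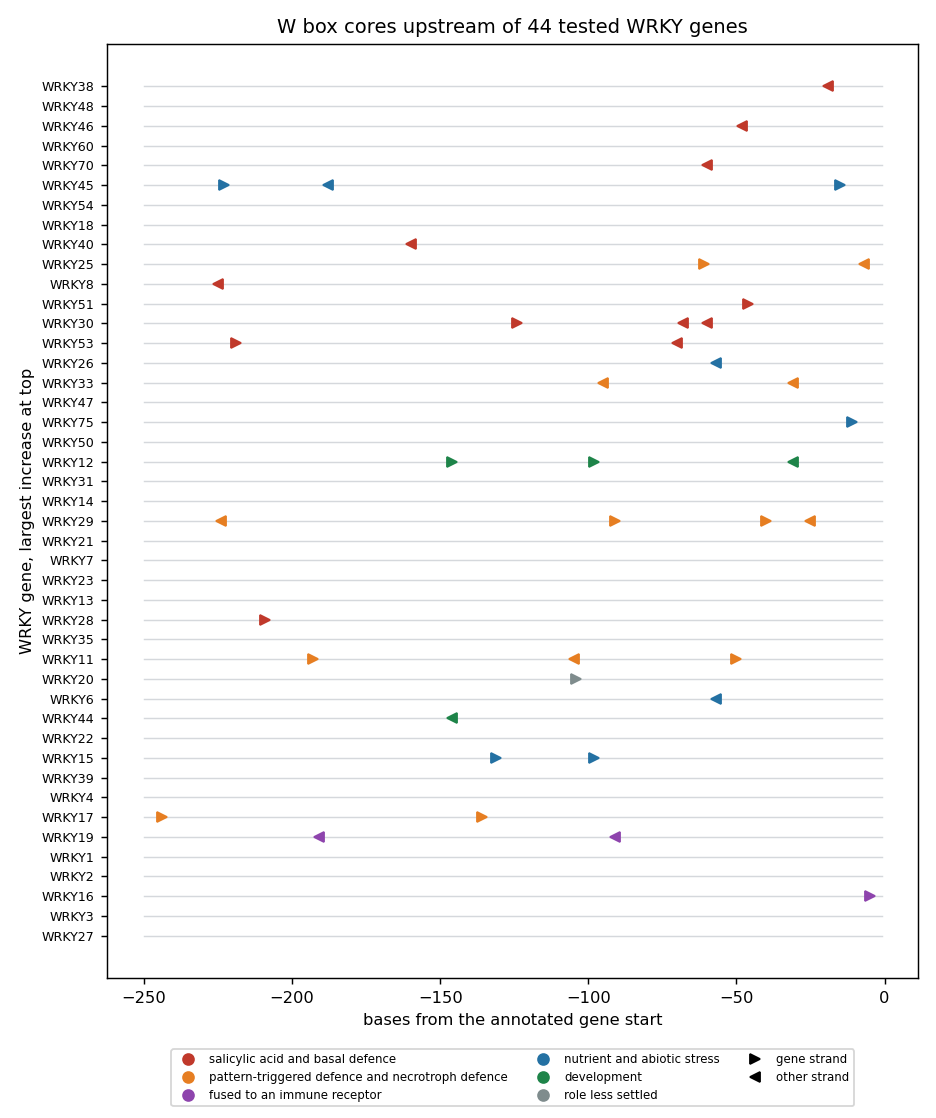
Positions of W box cores in the 250 bases before the gene start (x axis, bases from the start to the leftmost base of the match) for the 44 tested WRKY genes (y axis, largest increase at top), with arrowheads for the strand and colours for the role. Cores are found along the whole list, in 10 of the 14 genes higher by at least 1.5-fold and in 14 of the other 30.

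Defence members that act in pattern-triggered immunity or against necrotrophs changed less in the median. Of 10 tested, 5 were higher, 1 of them by at least 1.5-fold, and 2 were lower, with a median of 0.07. Over all tested genes 22.2% were higher and 21.2% lower, so the share called lower is close to that of all genes. WRKY25 (AT2G30250, chromosome 2), a MAP kinase substrate that also acts in heat tolerance, had 14.7, 14.7 and 14.4 CPM in Col-0 and 23.7, 24.995 and 24.62 CPM in the mutant, a log2 fold change of 0.74 ± 0.05 (adjusted p = 5.94e-16). Its close relative WRKY33, which drives camalexin synthesis against Botrytis, rose from 21.0 ± 0.51 to 29.8 ± 0.57 CPM (SD, n = 3 each), by 0.51 ± 0.04 on the log2 scale. The log2 ratio of WRKY25 to WRKY33 counts moved from -0.52 ± 0.03 to -0.29 ± 0.02, and the groups did not overlap (exact permutation p = 0.1, the smallest possible, and 0.22 adjusted over 11 pairs).

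WRKY22 and WRKY29 are known as joint outputs of flagellin signalling through MAP kinases. WRKY29 rose from 6.78 ± 0.33 to 8.38 ± 0.38 CPM, by 0.30 ± 0.07 on the log2 scale, while WRKY22 had 3.56 ± 0.16 and 3.63 ± 0.07 CPM and did not pass (0.03, adjusted p = 0.851). Their log2 count ratio moved by -0.28 without overlap (exact permutation p = 0.1, adjusted 0.22). The gene GH9B15 on the other strand covers 18.02% of the exons of WRKY29. The calmodulin-binding WRKY7 rose by 0.27 ± 0.04, and the negative regulators of basal resistance WRKY11 and WRKY17 had 0.12 ± 0.04 and -0.04 ± 0.05. WRKY11 and WRKY17 could also stand in the basal defence class, so the class medians depend on such placements. With the coefficient of variation set to 0.1 the calls of WRKY29 and WRKY7 were lost, at adjusted p of 0.162 and 0.167, the highest of their alternatives.

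WRKY11 and WRKY3 were among the 3 listed WRKY genes with the highest level per length in Col-0. WRKY3 (AT2G03340, chromosome 2), which supports resistance to necrotrophs, was the most abundant at 22.7 ± 1.02 CPM per kb of exon in Col-0, and its level was 50.4, 47.4 and 51.8 CPM in Col-0 and 43.9, 44.7 and 44.96 CPM in the mutant. All mutant samples lay below Col-0, and the log2 fold change was -0.16 ± 0.04 (adjusted p = 0.000231). That call was lost with the coefficient of variation set to 0.1, and the adjusted p ran from 1.96e-05 to 0.524 over the alternatives. Its relative WRKY4 had 0.00 ± 0.05 and overlapping groups. WRKY11 (AT4G31550, chromosome 4) had 37.3, 36.5 and 35.2 CPM in Col-0 and 40.6, 39.0 and 38.7 CPM in the mutant, close but without overlap (adjusted p = 0.0103). That call was lost without Col-0 replicate C (0.09) and without mutant replicate A (0.09), with adjusted p from 0.000126 to 0.701 over the alternatives.

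WRKY27, which promotes symptoms of bacterial wilt, had the largest decrease among the listed members, from 6.003 ± 0.18 to 5.07 ± 0.11 CPM (log2 fold change -0.25 ± 0.08, adjusted p = 0.0168). Without Col-0 replicate B or mutant replicate B it had -0.22 and -0.23 and was not called, and the adjusted p ran from 0.0159 to 0.356 over the alternatives. WRKY16 (AT5G45050), a gene that joins a WRKY domain to an immune receptor, fell by 0.15 ± 0.04 on the log2 scale, from 32.7 ± 0.30 to 29.4 ± 1.17 CPM (adjusted p = 0.00184). With library totals as the only scaling it had -0.09 and did not pass, with adjusted p from 0.000647 to 0.572 over the alternatives. WRKY19, the other fusion of this kind in the list, had -0.05 ± 0.04 and did not pass.

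Among the 5 developmental members WRKY23 alone passed the test, and this share of 1 in 5 is close to the 22.2% of all tested genes that were higher. WRKY23 (AT2G47260, chromosome 2), an auxin-inducible regulator of embryo and root patterning, had 9.94, 9.92 and 9.28 CPM in Col-0 and 11.3, 12.04 and 10.8 CPM in the mutant. The groups did not overlap, and the log2 fold change was 0.22 ± 0.06 (adjusted p = 0.00449), or 1.17-fold. The call was lost with the coefficient of variation set to 0.1 (0.23), and the adjusted p ran from 0.000355 to 0.349 over the alternatives, with 0.0433 without mutant replicate B. No developmental member reached 1.5-fold, and the class sum was 30.9 ± 0.63 CPM in Col-0 and 32.2 ± 0.90 CPM in the mutant.

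WRKY12 and WRKY13 are known from stem cell walls and from flowering time, where they act in opposite ways. WRKY12 (AT2G44745, chromosome 2), which represses secondary walls in the pith, had 0.941, 0.905 and 0.918 CPM in Col-0 and 1.101, 1.13 and 1.43 CPM in the mutant. Its groups did not overlap, but with 95 and 139 counts per group the log2 fold change of 0.40 ± 0.19 did not pass (adjusted p = 0.0891), and the interval was 0.03 to 0.78. It passed with library totals as the only scaling (0.47, adjusted p = 0.0449, in a range up to 0.338). WRKY13 (AT4G39410, chromosome 4), which favours lignin formation in stems, had 1.38, 1.53 and 1.21 CPM in Col-0 and 1.52, 1.63 and 1.69 CPM in the mutant, with overlapping groups (0.22 ± 0.16, adjusted p = 0.29). The 250 bases before WRKY12, at chr2:18449094-18449343 on the minus strand, held 3 W box cores, the same number as WRKY30, and are shown for that contrast with a member that did not pass.
WRKY12: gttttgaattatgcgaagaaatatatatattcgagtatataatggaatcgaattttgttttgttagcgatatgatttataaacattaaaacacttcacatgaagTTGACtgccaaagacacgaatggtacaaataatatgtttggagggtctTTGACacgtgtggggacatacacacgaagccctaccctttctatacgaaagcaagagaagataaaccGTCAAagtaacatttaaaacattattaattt

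WRKY44 and WRKY2 did not pass, and their groups overlapped. WRKY44 (AT2G37260, chromosome 2), also called TTG2, acts in trichomes, seed coat tannin and mucilage. It had 4.73, 5.4 and 4.72 CPM in Col-0 and 5.30, 4.65 and 5.39 CPM in the mutant, and its interval of -0.14 to 0.22 on the log2 scale limits a change to 1.17-fold upward. WRKY2 (AT5G56270, chromosome 5), which sets zygote polarity through WOX8, had 13.3, 13.8 and 14.8 CPM in Col-0 and 12.4, 13.8 and 12.5 CPM in the mutant (-0.11 ± 0.06, adjusted p = 0.128). It was called only without mutant replicate B, at -0.16 with an adjusted p of 0.0436, in a range up to 0.737.

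Of the 12 regulators and targets tied to the developmental members, 9 were tested. None of these was higher, 3 were lower and 6 were not called, with a median of -0.07. Over all tested genes 22.2% were higher and 21.2% lower. GL1, the MYB regulator of trichome fate that acts upstream of WRKY44, fell from 1.94 ± 0.25 to 0.938 ± 0.11 CPM, by 1.04 ± 0.17 on the log2 scale. GL2, a homeobox target of the same complex, fell by 0.39 ± 0.06, and IAA14, the auxin repressor upstream of WRKY23, fell by 0.16 ± 0.05. The 4 regulators listed for trichomes, GL1, GL2, ETC2 and TCL1, were all lower, though the groups of ETC2 overlapped. They do not measure trichome number. Their sum was 18.8 to 20.2 CPM in Col-0 and 13.9 to 14.3 CPM in the mutant. Most of it was GL2, with means of 14.8 CPM in Col-0 and 11.4 CPM in the mutant. How far trichome number enters the level of WRKY44 was not tested. WOX8 had 0 counts in all libraries, WOX9 had 13 and 21 counts in the groups and NST2 had 1 and 2.

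Among members of phosphate and abiotic stress responses, 4 of 8 were higher and none lower, 1 by at least 1.5-fold, with a median of 0.26. Of all tested genes 22.2% were higher. WRKY45 (AT3G01970, chromosome 3), which activates the phosphate transporter gene PHT1;1, had 3.88, 3.81 and 4.20 CPM in Col-0 and 6.24, 7.52 and 7.87 CPM in the mutant, a log2 fold change of 0.87 ± 0.09 (adjusted p = 5.98e-10). Its relative WRKY75, induced by phosphate starvation and active in senescence, rose by 0.44 ± 0.11, from 2.75 ± 0.01 to 3.74 ± 0.31 CPM. With the coefficient of variation set to 0.1 WRKY75 just missed the threshold (adjusted p = 0.0521). The log2 ratio of WRKY45 to WRKY75 counts moved from 0.52 ± 0.07 to 0.94 ± 0.18 without overlap (exact permutation p = 0.1, adjusted 0.22). WRKY26, which acts in heat tolerance with WRKY25 and WRKY33, rose by 0.55 ± 0.05, or 1.46-fold, just under the fold threshold, where WRKY53 at 1.502-fold was just above it. WRKY47 rose by 0.47 ± 0.05.

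The other 4 members of this class did not pass. WRKY6, a repressor of the phosphate exporter gene PHO1, had 0.08 ± 0.04, the heat-responsive WRKY39 had 0.00 ± 0.04 and WRKY1 had -0.07 ± 0.04. WRKY15 (AT2G23320, chromosome 2), which acts in oxidative and osmotic stress and had the third highest level per length in the list, had 26.2, 25.2 and 24.4 CPM in Col-0 and 23.9, 26.4 and 25.99 CPM in the mutant. Its groups overlapped, and the interval was -0.08 to 0.10 on the log2 scale. Of the phosphate genes named as targets, PHT1;1 rose by 0.09 ± 0.03, far less than WRKY45, and PHO1 fell by 0.11 ± 0.03. PHT1;5 rose from 34 to 67 counts, by 0.83 ± 0.30 on the log2 scale (edgeR adjusted p = 0.0261).

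The 5 members whose roles are less settled were nearly all slightly higher. Of these 4 passed and none fell, with a median of 0.28 and no change of 1.5-fold, where 22.2% of all tested genes were higher. WRKY31 rose by 0.31 ± 0.09, WRKY14 by 0.30 ± 0.06, WRKY21 by 0.28 ± 0.05 and WRKY20 by 0.10 ± 0.04, and WRKY35 had 0.18 ± 0.10. All 4 calls were lost with the coefficient of variation set to 0.1, where the adjusted p was 0.198 for WRKY31, 0.129 for WRKY14 and 0.158 for WRKY21, the highest of their alternatives. WRKY31 was also lost with DESeq2 (adjusted p = 0.0581). The call of WRKY20 was lost with DESeq2 too (adjusted p = 0.119), and without Col-0 replicate B (0.08), mutant replicate A (0.10) or mutant replicate C (0.08), with adjusted p from 0.000382 to 0.759 over the alternatives.

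By structure, the groups with the highest medians were III and IIa. All 6 tested genes of the 8 in group III and all 3 of group IIa were higher by at least 1.5-fold, with medians of 0.87 and 0.83. Of 10 genes of group IIc 7 were higher, 4 of them by at least 1.5-fold, and the median was 0.43. In group IId, which holds WRKY7, WRKY11, WRKY15, WRKY17, WRKY21 and WRKY39, 3 of 6 were higher and the median was 0.06. Group I had 4 higher and 1 lower of 9, with a median of 0.04. Group IIe had 2 higher and 1 lower of 5, with a median of 0.18, and group IIb had 2 higher of 3, with a median of 0.31. Of all tested genes 22.2% were higher, 21.2% lower and 5.49% higher by at least 1.5-fold. Shares in groups this small rest on few genes, and those called lower in groups I and IIe do not exceed 21.2%. The role classes and structural groups overlap, since every member of groups III and IIa in the list falls in the salicylic acid class.

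The genes that rose most were not the abundant ones. Ordered by CPM per kb of exon in Col-0, the 15 most abundant members ranged from 8.10 to 22.7 and had 8 higher, 2 of them by at least 1.5-fold, with a median log2 fold change of 0.10. In the 15 of the middle range, from 2.24 to 7.22, 9 were higher, 4 by at least 1.5-fold, with a median of 0.30. Of the 14 tested members in the lowest range, at up to 2.014 CPM per kb, 10 were higher, 8 by at least 1.5-fold, with a median of 0.60. All 8 belong to the salicylic acid class, so level and role overlap in this order. The level in Col-0 is also the base of the fold change, so the order is not independent of it. WRKY70 at 8.45 and WRKY25 at 8.22 CPM per kb were the 2 members of the top range past 1.5-fold. Neighbours in this order can lie within their spread, as WRKY70 at 8.45 ± 0.53 and WRKY26 at 8.46 ± 0.22 in Col-0 did.

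**Figure D5:**
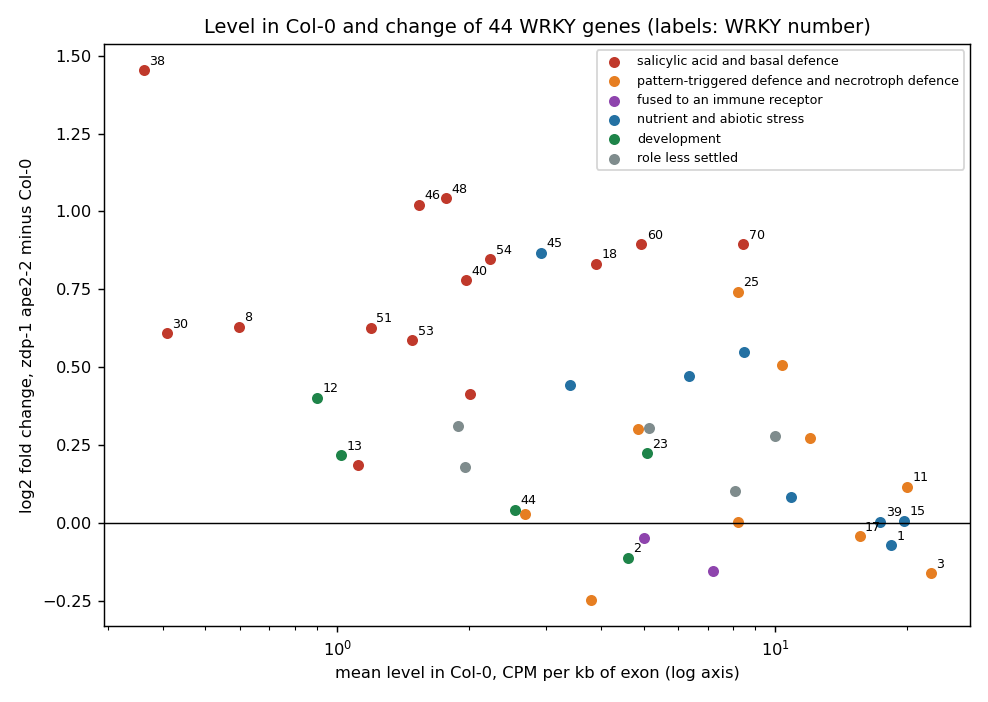
Mean level in Col-0 (x axis, CPM per kb of exon, log scale) and log2 fold change in the mutant (y axis) of the 44 tested WRKY genes, coloured by role and labelled by WRKY number for genes with large changes, high levels or developmental roles. Genes above 15 CPM per kb, WRKY1, WRKY3, WRKY11, WRKY15, WRKY17 and WRKY39, lie between -0.16 and 0.12, and the 14 genes higher by at least 1.5-fold lie at or below 8.45.

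The MAP kinases and VQ partners of WRKY proteins changed less than the salicylic acid class. Of 9 MAP kinase cascade genes 5 were higher and none lower, with a median of 0.11, where 22.2% of all tested genes were higher. Only 1 of the 9, MKK9, rose by at least 1.5-fold. MKK9 rose from 10.9 ± 0.84 to 20.6 ± 0.78 CPM, by 0.91 ± 0.06 on the log2 scale, MPK3 rose by 0.19 ± 0.03 and MKK4 by 0.27 ± 0.05, while MPK4 and MPK6 had 0.02 each and did not pass. Of 8 tested VQ genes of 10, 4 were higher and none lower, 1 of them, VQ10, by at least 1.5-fold, with a median of 0.12. VQ10 rose by 0.97 ± 0.17, SIB1, a partner of WRKY33, by 0.53 ± 0.10 and JAV1, a repressor of jasmonate defence bound by WRKY51, by 0.51 ± 0.10. SIB2, whose exons another gene covers entirely, had 0 counts and was not assessed.

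Of 10 defence genes known as targets of WRKY proteins 9 were higher and none lower, with a median of 0.59, where 22.2% of all tested genes were higher. PR1, the marker of salicylic acid signalling, rose from 30.9 ± 0.76 to 54.4 ± 0.43 CPM, SARD1, an activator of ICS1, by 1.26 ± 0.09 on the log2 scale, and the flagellin-induced kinase gene FRK1 by 1.16 ± 0.09. NPR1, the salicylic acid receptor, had -0.02 and did not pass. Overlapping genes cover 18.4% of the exons of SARD1.

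Of the 25 WRKY genes outside the list 16 were tested, and 3 were higher and none lower, with a median of 0.01. That share called higher is close to the 22.2% of all tested genes. WRKY57 (AT1G69310), known from drought tolerance and as a brake on jasmonate-induced senescence, rose from 11.8 ± 0.38 to 26.03 ± 1.09 CPM, by 1.14 ± 0.05 on the log2 scale, which is more than any listed member but WRKY38. WRKY71, an activator of shoot branching, rose from 46 to 103 counts (1.01 ± 0.26). WRKY58 had 40 and 77 counts, with overlapping groups (0.79 ± 0.29, adjusted p = 0.0243). WRKY62, the partner of WRKY38, had 16 and 27 counts and was not tested. List and remaining genes together gave a median of 0.22 over the tested WRKY family.

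Genes known for a rapid response to touch and handling moved with the defence members. All 8 such genes were higher, 6 by at least 1.5-fold, with a median of 0.68, and their summed level was 93.9 to 96.5 CPM in Col-0 and 149 to 155 CPM in the mutant. ZAT10 rose by 1.37 ± 0.07, TCH3 by 0.62 ± 0.04 and TCH4 by 0.64 ± 0.05. Overlapping genes cover 20.2% of the exons of TCH3. Several WRKY genes, WRKY40 and WRKY33 among them, are also known to respond to wounding within minutes, and the part of handling at harvest in these results was not tested. Floral organ markers moved as well: 4 of 5 were tested and all 4 were higher, with summed levels of 9.88 to 10.3 CPM in Col-0 and 24.6 to 25.01 CPM in the mutant, and SEP3, PI and AG rose by 1.07, 2.77 and 2.17. Seed maturation markers summed to 1.90 to 2.298 CPM in Col-0 and to 7.81 to 9.10 CPM in the mutant, where CRA1 had 6 and 474 counts, CRU3 3 and 113, OLEO4 208 and 385 and CRU2 2 and 1. The part of these tissues in the WRKY levels was not tested. Leaf photosynthesis markers were lower in 6 of 6. Root markers were lower in 4 of 11, CASP1, CASP2, FRO2 and IRT1, and the other 7 were not called. None of either list was higher. Of all tested genes 22.2% were higher and 21.2% lower.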

How the data were processed

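The authors deposited 1 table per sample with whole-number counts per gene, not normalised or pooled. STAR and the TAIR10 build are named in the submitters' processing notes. How reads were assigned to genes, on which strand and by which annotation release is not given in the sources used here. Exon length per gene, also deposited, equals the union of its exons and scaled the levels per kb.

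Tests used edgeR 4.0.16 in R 4.3.3 on all 33489 genes: filterByExpr, TMM factors and the quasi-likelihood F test with genotype as the only term, two-sided, with Benjamini-Hochberg adjustment over 21182 genes and a threshold of 0.05. Standard errors were derived from each log2 fold change and its F statistic, and intervals are 1.96 standard errors (95%). On simulated data over 20897 genes, the fit called 41 of 50 genes changed 1.25-fold, 48 of 50 changed 1.5-fold and 49 of 50 changed 2-fold. The changed genes were drawn above a minimum level in Col-0, so these rates do not cover members below it, such as WRKY38 and WRKY30. DESeq2 1.42.0 was an alternative. Within groups, a chi-square per gene of 1.55 to 1.92 showed no library deposited again.

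The members and gene lists were chosen with earlier results of these data known. Values in every sample are given for members called at 1.5-fold or more, developmental members and the 3 with the highest level per length in Col-0; up to 3 called genes with the smallest p are named from other lists. Other genes named were chosen after their values were seen. Gene coordinates are those of the deposited tables (TAIR10); all 46 members have the same ones in the TAIR10.1 reference, from which upstream windows of 250 bases were read. Exon copies were searched with BLAST 2.17.0 (at least 90% identity over 50 bases). Copies cover at most 10.9% of the exons of members other than WRKY40.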

Additional observations from a re-analysis of the deposited data

How the results depend on the processing

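Over 12 alternatives, 14 of the 30 called members were called in every one, and of the 14 higher by at least 1.5-fold all but WRKY8, WRKY30 and WRKY51 were. Leaving out 1 sample at a time gave 24 to 26 members higher, 2 to 3 lower, 11 to 14 higher by at least 1.5-fold and a median of 0.28 to 0.34. With library totals alone, which moved the median of all genes to 0.07, 1 member was lower and the median of members was 0.37. Over all genes, library totals called 6959 higher and 2720 lower, against 4699 and 4498. With the coefficient of variation set to 0.1, wider than the estimated spread, 15 members were higher and 0 lower, and over all genes 1668 and 760. Chosen after seeing the data, the full WRKY family gave a median of 0.22. No alternative gave a member lower by at least 1.5-fold.

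Signs changed only for members near 0 that were not called. WRKY17 and WRKY19 had 0.022 and 0.015 with library totals alone. WRKY4 and WRKY39 had -0.0016 and -0.00040 with no filter on low counts. Leaving out samples gave -0.036 to 0.025 for WRKY4, -0.020 to 0.049 for WRKY15, -0.00091 to 0.067 for WRKY22 and -0.017 to 0.035 for WRKY39. The cause was not tested.

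The replicate letters did not pair the samples: deviations of same-letter samples correlated at -0.007, 0.066 and 0.013, and Col-0 replicate A correlated more with mutant replicate C. With the replicate block 27 members were higher, 3 lower and 14 higher by at least 1.5-fold, at a median of 0.31. Depth limits WRKY41 and WRKY55, which could not be tested with the filter.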
